A study of Mus musculus with 2 samples.

Results

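The 9 genes described here encode the proteins that build and anchor the spectrin membrane skeleton of the red cell, namely Sptb, Ank1, Epb41, Epb42, Dmtn, Add1, Add2, Tmod1 and Mpp1. They were chosen by symbol, with every transcript that the quantification lists for them, which gave 9 of 43346 annotated genes and 77 of 103639 transcripts. RNA came from livers of B6NCrl mouse embryos at day 13.5 of gestation, taken from males and females together, and was measured as total RNA-seq in 2 libraries that the labels number as biological replicates. No genetic change or treatment is given. Each library started from 10 ng of RNA over 200 nt with spike-in RNAs added, and both carry the same donor entry, so each SD below measures the spread between these 2 samples. With 1 group there was no condition to test, and no p-value is given.

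The fetal liver is the main site of red cell formation at this age. Beneath the membrane of a red cell, spectrin heterodimers form a flexible net. Ankyrin ties beta spectrin to the anion exchanger with the help of protein 4.2, while short actin filaments at the junctions of the net carry protein 4.1, dematin, adducin and tropomodulin, and p55 joins protein 4.1 to glycophorin C. Most of these genes make different proteins in red cells, muscle and brain from alternative starts and exons.

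The tissue matched its label. All 5 liver markers and all 8 red cell markers reached 1 TPM (a transcript level per length, scaled to a fixed total in each library) in both libraries, with 1531 and 1789 TPM for Alb and 660.5 and 818 TPM for Slc4a1, the anion exchanger, in replicates 1 and 2. The libraries held 3.92e+07 and 3.74e+07 estimated reads in annotated genes. Globins took 34.6% and 31.2% of gene TPM, which sets the scale of all other TPM values. Markers of heart summed to 37.5 and 104.6 TPM in replicates 1 and 2, and all 8 of them were higher in replicate 2. None of the 8 was at 0, and 3 of them, Actc1, Tnnt2 and Myl7, reached 1 TPM in both. Markers of skeletal muscle summed to 81.7 and 66.8 TPM with 7 of 9 at 1 TPM in both, markers of neurons to 12.8 and 9.85 TPM with 3 of 7, and markers of megakaryocytes to 796 and 737 TPM with 7 of 7.

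All 9 genes were well expressed. Every one passed 1 TPM in both libraries, as did 12183 of 23364 annotated genes with a count (52.1%). Their median was 92.2 TPM in replicate 1 and 99.8 TPM in replicate 2, beside a median of 1.37 and 1.48 TPM over all genes with a count. They had between 4314 and 21732 estimated reads per gene and library. Each lay above 75.6% or more of the genes that reached 1 TPM. The genes summed to 719 and 838 TPM, or 0.0733% and 0.0866% of gene TPM, and to 0.243% and 0.272% of the reads. In bulk liver, fewer red cell precursors and less RNA per cell cannot be told apart, so the levels describe the tissue.

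Sptb encodes beta spectrin of the red cell and lies on chromosome 12 at 76580488 to 76710547, minus strand (mm10, as are all positions here). It had 35.7 and 47.7 TPM in replicates 1 and 2 (41.7 ± 8.48, SD, n = 2). Of the other beta spectrins only Sptbn1, the form found in most tissues, passed 1 TPM, at 15.2 and 16.7 TPM. Sptb held 71.9% ± 2.83 of the TPM of its 5-gene family.

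Nearly all of Sptb was 1 isoform. Sptb-202, a frame of 2137 codons, held 95.9% and 95.6% of the gene in replicates 1 and 2. Sptb-201, which starts upstream at 76710547 and has 2329 codons, held 4.12% and 4.40%, or 1.47 and 2.10 TPM. The shorter frame corresponds to the beta spectrin known from red cells and the longer to the form known from muscle and brain, which ends in a pleckstrin homology domain. The libraries did not overlap in the level of Sptb-202, which had 34.2 and 45.6 TPM, but its share differed by less than 1 percentage point.

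Ank1 encodes ankyrin-1, the tether between spectrin and the membrane, on chromosome 8 at 22974844 to 23150497, plus strand. It was the lowest of the 9 genes, with 33.4 and 37.7 TPM in replicates 1 and 2 (35.5 ± 3.03, SD, n = 2). Its family members were lower still. Ank3 had 4.96 and 6.24 TPM and Ank2 2.87 and 4.1 TPM, so Ank1 held 79.7% ± 1.79 of ankyrin TPM. The 2 tether genes were close to each other, with Sptb over Ank1 at 1.07 and 1.27.

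Ank1 used several of its annotated starts, and the leading isoform held only a minority of the gene. Transcripts that start between 23035099 and 23035128, Ank1-205 and Ank1-206, made up 50.5% and 48.6% of Ank1 TPM in replicates 1 and 2. Those that start between 23058259 and 23058311, led by Ank1-202 and Ank1-207, made up 25.9% and 23.0%. The most upstream starts, from 22974844 to 22975136, had low estimates, with 0.0300% and 0% at the first and 0% and 0.425% at the next. The credibility interval of Ank1-209, at the first, reached up to 3.33 TPM in replicate 1 and 3.85 TPM in replicate 2. The use of that start is therefore uncertain. Another start at 23035231 belongs to Ank1-213 alone, which replicate 1 listed at 0 TPM and replicate 2 at 4.12 TPM. The deposited credibility intervals of Ank1-213 did not overlap, ending at 0.550 TPM in replicate 1 and beginning at 2.77 TPM in replicate 2. Ank1-206 itself, a frame of 1862 codons, held 36.8% and 32.3% of the gene.

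A short Ank1 isoform was also present. Ank1-201, which shares a start group between 23139030 and 23139105 with Ank1-208, has 156 codons, while the other Ank1 coding isoforms over 5% have 1848 to 1887. Small ankyrin of this kind is known from the sarcoplasmic reticulum of striated muscle, where it lacks the spectrin-binding region. Ank1-201 had 4.78 and 3.37 TPM in replicates 1 and 2, with credibility intervals that overlapped between the libraries. Because it is short, its start group held 14.9% and 9.02% of Ank1 TPM but 2.46% and 1.38% of the estimated reads. The skeletal muscle marker sum was also higher in replicate 1, and the heart marker sum was higher in replicate 2. Their part in the level of Ank1-201 was not tested.

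**Figure D1:**
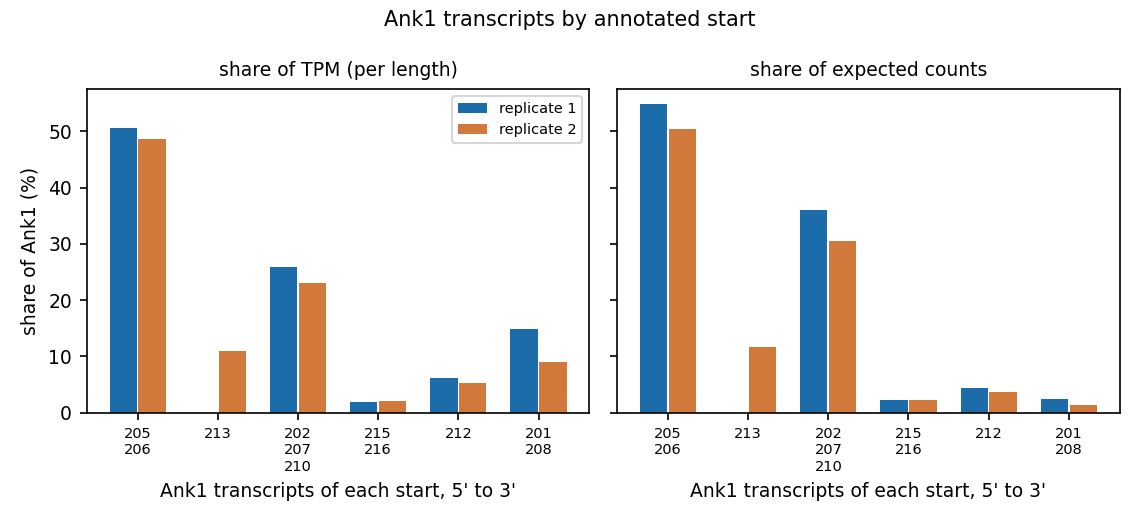
Share of Ank1 held by each annotated start, in percent of TPM (left panel) and of estimated reads (right panel), with replicate 1 and replicate 2 as neighbouring bars. Numbers under the bars are transcript suffixes in order along the gene, starts holding over 1% are drawn, and the start of 201 and 208 falls to 2.46% and 1.38% on the read scale.

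The 3′ part of Ank1 varied too. A 24-nt coding exon at 23110347 to 23110370 was in 34.8% and 27.8% of the coding TPM that spans it in replicates 1 and 2. All transcripts with a count that lack it start between 23035099 and 23035231, and none that hold it start there. Its share therefore restates the use of starts and is not a separate result. The exon that begins at 23141164 was 66 nt long in 69.6% and 60.4% of the coding TPM that spans it and 141 nt long in 30.4% and 39.6%. A 125-nt exon at 23141596 to 23141720 was present in 84.5% and 77.8%. Single isoforms were less certain than these sums. Ank1-202 held 16.5% and 6.74% and Ank1-207 held 8.60% and 14.6%, and their credibility intervals overlapped between libraries.

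Epb41 encodes protein 4.1R, which locks spectrin onto actin, on chromosome 4 at 131923413 to 132075321, minus strand. It was the highest of the 9 genes, with 131 and 171 TPM in replicates 1 and 2 (151 ± 28.1, SD, n = 2). The relation to spectrin was steady at 3.67-fold and 3.58-fold over Sptb. Its highest relative, Epb41l5, had 10.6 and 13.9 TPM, and Epb41l2 had 6.67 and 9.52 TPM. Epb41 stood 3.61 ± 0.01 above Epb41l5 on a log2(TPM + 0.1) scale, the widest such gap of the 9 genes, and held 84.2% ± 0.11 of its family.

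Epb41 divides its isoforms by small exons. Known best is a 63-nt exon that encodes part of the spectrin-actin binding domain and whose inclusion rises as mouse and human erythroblasts mature. The 3 neighbouring alternative exons of that region are shown because the isoform results turn on them. They are given 5′ to 3′ on the gene's strand, from GENCODE M21 transcripts on GRCm38, with the exon in capitals and 15 nt of the adjoining exons in lower case. In the last line, the junction that leaves the exons out, capitals mark the downstream exon.
57-nt exon, chr4:131964131-131964187: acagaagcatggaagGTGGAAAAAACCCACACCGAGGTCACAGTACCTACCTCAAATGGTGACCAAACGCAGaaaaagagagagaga
42-nt exon, chr4:131963929-131963970: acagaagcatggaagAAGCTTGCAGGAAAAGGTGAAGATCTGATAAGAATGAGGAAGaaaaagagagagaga
63-nt exon, chr4:131962924-131962986: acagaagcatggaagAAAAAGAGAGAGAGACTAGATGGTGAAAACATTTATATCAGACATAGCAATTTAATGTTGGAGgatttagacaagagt
junction without them, chr4:131957819-131967788: acagaagcatggaagGATTTAGACAAGAGT

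The share of Epb41 with the 63-nt exon depended on which transcripts were counted. Among transcripts annotated as protein-coding that span it, 96.3% and 94.7% of TPM held the exon in replicates 1 and 2. Over all spanning transcripts, 48.2% and 48.7% held it. The difference is Epb41-215, the leading Epb41 transcript, which uses the junction printed above and had 47.7 and 65.8 TPM, or 36.5% and 38.6% of the gene. Epb41-215 is annotated as a processed transcript with no protein. It shares 16 of its 18 exons with the coding Epb41-204, and its longest ATG-to-stop frame has 594 codons and ends at the stop codon of Epb41-204, whose frame has 639.

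The neighbouring exons were less used. The 42-nt exon was in 37.1% and 30.5% of coding TPM, and in 18.6% and 15.7% over all spanning transcripts. The 57-nt exon was in 19.7% and 16.3%, and in 9.86% and 8.36% over all. Upstream, a 75-nt exon at 132006049 to 132006123 was in 11.1% and 15.5% of coding TPM and in 1.70% and 2.14% over all, since Epb41-215 and Epb41-209 lack it. Toward the 3′ end, a 102-nt exon at 131929694 to 131929795 was in 98.2% and 97.1% of coding TPM, and a 450-nt exon at 131937015 to 131937464 in 4.38% and 6.32%. Of these exons, the 102-nt exon alone was in nearly all transcripts on both ways of counting.

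**Figure D2:**
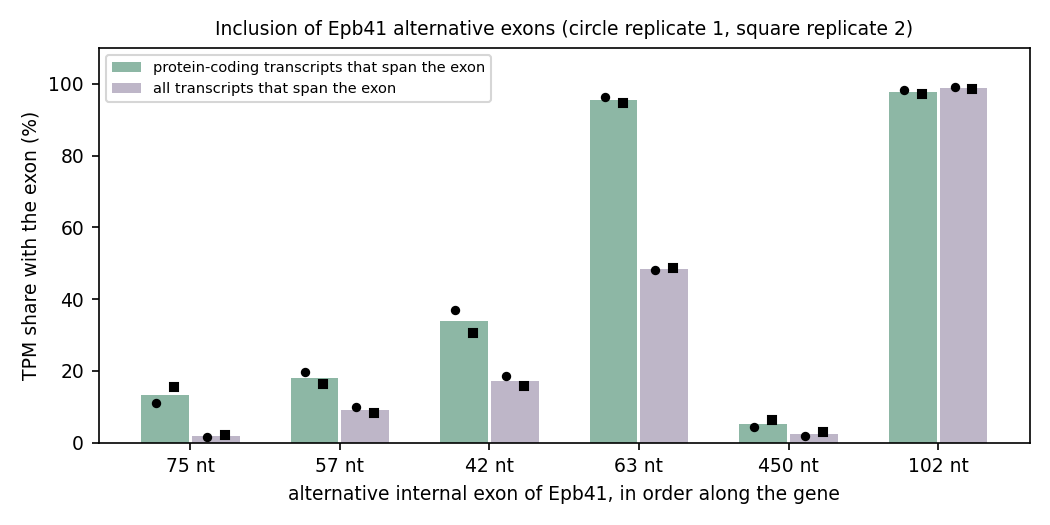
Share of TPM that holds alternative internal exons of Epb41, in percent, in order along the gene. A 105-nt alternative exon at 132000200 to 132000304, held by 100% in both libraries, is not drawn. Green bars are means over protein-coding transcripts, purple bars means over all transcripts, circles are replicate 1 and squares replicate 2, and for the 63-nt exon the green points lie at 96.3% and 94.7% and the purple points at 48.2% and 48.7%.

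Little of Epb41 lay in complete coding transcripts. The coding transcripts with both ends annotated had 2.66 and 2.49 TPM, or 1.75% ± 0.41 of the gene. The coding part was held by fragments with a missing end, led by Epb41-212 at 19.3 and 31.6 TPM, Epb41-216 at 16.2 and 20.8 TPM and Epb41-218 at 21.5 and 12.8 TPM. Epb41-212 was higher in replicate 2 with intervals that did not overlap, and the intervals of Epb41-216 and Epb41-218 overlapped. All protein-coding transcripts together held 52.9% and 48.3% of Epb41.

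Starts of Epb41 are known to set which translation start its protein uses. The most upstream start group, between 132075264 and 132075321, held 45.5% and 50.3% of Epb41 TPM in replicates 1 and 2. The group between 132049078 and 132049091 held 6.01% and 6.40%, and the start at 132072097 held 0.267% and 0.240%. Much of the rest, 14.7% and 18.5% at 132003794 and 13.7% and 14.4% between 131967845 and 131967876, came from transcripts whose true start is not annotated.

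Epb42 encodes protein 4.2, a relative of the transglutaminases without their enzyme activity, which steadies the anion exchanger on ankyrin. It lies on chromosome 2 at 121017891 to 121037072, minus strand. Its level was 120.3 and 140.4 TPM in replicates 1 and 2 (130.3 ± 14.2, SD, n = 2), which overlapped with Epb41 but not with Add1, the next gene in order. It exceeded Ank1 by 3.60-fold and 3.72-fold. Tgm2, an active transglutaminase, had 57.4 and 61.0 TPM, and F13a1, a clotting factor subunit, 7.08 and 7.69 TPM. Of the 8 relatives 3 passed 1 TPM in both libraries.

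Most Epb42 TPM, though not most of its estimated reads, was assigned to transcripts other than its coding ones. Epb42-206, a processed transcript of 4 exons that starts inside the gene at 121022806, led with 53.0 and 59.5 TPM, or 44.0% and 42.4% of the gene in replicates 1 and 2. The full coding Epb42-202, with 691 codons, had 37.85 and 41.99 TPM, or 31.5% and 29.9%. On the read scale the order turned, with 29.6% and 29.0% in Epb42-206 and 51.3% and 49.7% in Epb42-202. The longest frame in Epb42-206 has 151 codons and that in Epb42-203, another processed transcript with 10.5% and 13.1% of TPM, has 358. Both end at the stop codon of Epb42-202. All but 65 of the 1752 nt of Epb42-206 and 40 of the 2513 nt of Epb42-203 also lie in Epb42-202. The split between these transcripts therefore rests on how the quantification divided shared reads. Coding transcripts held 38.9% and 36.6% of TPM and 59.2% and 56.8% of reads.

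**Figure D3:**
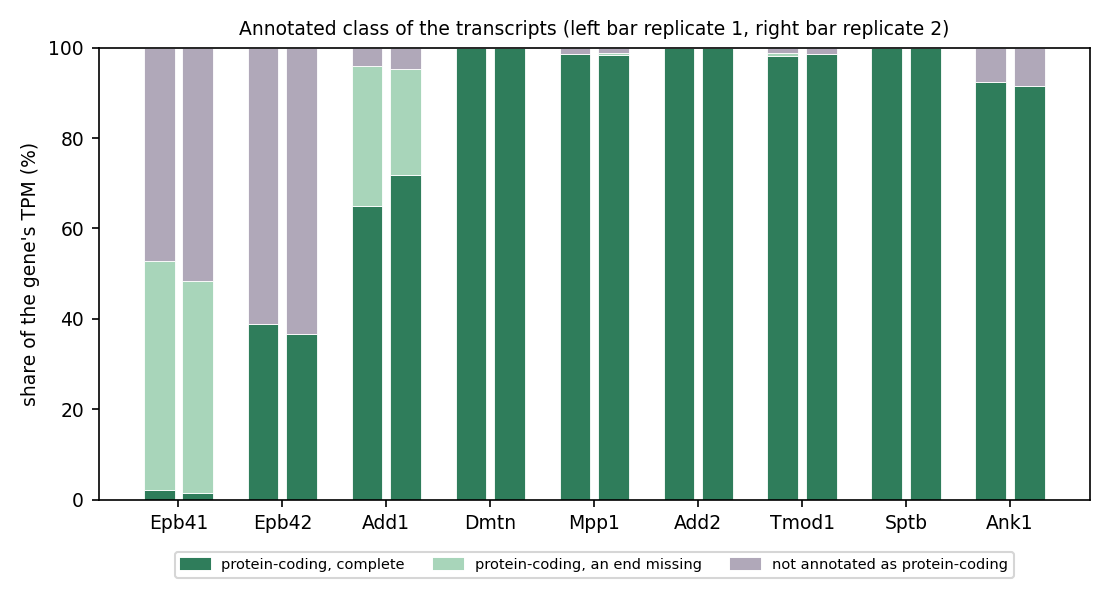
Share of each gene's TPM by annotated class of transcript, in percent, with replicate 1 left and replicate 2 right for every gene. Complete coding transcripts fill 100% of Sptb, Dmtn and Add2 but 2.03% and 1.46% of Epb41, and transcripts not annotated as protein-coding fill 61.1% and 63.4% of Epb42. For Dmtn and Add2 the 100% is by construction, since no transcript of another class was quantified.

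Dmtn encodes dematin, which bundles actin and in human red cells helps hold the junctions to the glucose transporter, on chromosome 14 at 70601263 to 70636048, minus strand. It had 97.0 and 113.5 TPM in replicates 1 and 2 (105 ± 11.7, SD, n = 2). The related headpiece protein gene Svil reached 20.7 and 24.6 TPM, and Vill 6.79 and 6.86 TPM. Dmtn-203 held 90.8% and 90.5% of the gene and Dmtn-202, from a start upstream at 70636048, held 9.24% and 9.19%. Both shares differed by less than 1 percentage point between the libraries. All 3 quantified transcripts of Dmtn are annotated as complete and coding, and GENCODE M21 lists 7 more transcripts.

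The adducins cap the fast-growing end of the junctional actin filament and recruit spectrin, alpha adducin pairing with beta or gamma adducin. Add1, the alpha gene, lies on chromosome 5 at 34573664 to 34632308, plus strand, and had 109.4 and 117 TPM in replicates 1 and 2 (113 ± 5.51, SD, n = 2). Add2, the beta gene, lies on chromosome 6 at 86028681 to 86124409, plus strand, and had 62.9 and 63.7 TPM (63.3 ± 0.56, SD, n = 2). Add3, the gamma gene of most other tissues, had 21.9 and 27.2 TPM. Over all transcript types, the partner sum of Add2 and Add3 was therefore below Add1 in both libraries, and Add2 over Add1 was 0.575 and 0.543. The complete coding transcripts of Add1 alone had 71.1 and 84.2 TPM in replicates 1 and 2, which is below that partner sum. Add3 was not split by transcript type. Add1 held 56.3% of adducin TPM and Add2 31.5% ± 1.26.

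Add1 was split between a short and a long protein end. A 37-nt exon at 34629136 to 34629172 ends the reading frame early and was in 63.7% and 63.4% of the coding TPM that spans it in replicates 1 and 2. A 34-nt form of this exon, from 34629139, was in a further 4.63% and 4.49%, so either form was in 68.4% and 67.9%. Add1-204, which holds the 37-nt form and has 632 codons, led with 34.9 and 45.9 TPM. Add1-205, which skips both forms and has 735 codons, had 30.4 and 33.0 TPM. The longer frame carries the tail related to MARCKS proteins that binds calmodulin and spectrin-actin. Add1-213, an incomplete transcript that also holds the exon, had 25.04 and 18.7 TPM, so it was lower in replicate 2 while Add1-204 was higher, and the intervals of neither overlapped between the libraries. An 87-nt exon at 34620832 to 34620918 was in 4.63% and 4.49%.

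Add2 had 1 transcript in the annotation used for quantification, Add2-201 of 725 codons, so its share was 100% by construction. GENCODE M21 lists 9 more. Its quantified start at 86078084 lies 49403 nt downstream of the start that RefSeq gives.

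Tmod1 encodes tropomodulin-1, which caps the slow-growing end of actin in red cells and in heart and skeletal muscle, on chromosome 4 at 46038935 to 46116032, plus strand. It had 37.8 and 47.8 TPM in replicates 1 and 2 (42.8 ± 7.07, SD, n = 2), or 1.06-fold and 1.00-fold the level of Sptb. Tmod3, the form of most tissues, had 17.4 and 23.0 TPM, and the other 5 relatives, which include the neural Tmod2 and the muscle Tmod4, stayed under 1 TPM in both libraries. Tmod1-201, with 359 codons, held 98.1% and 98.6% of the gene. Heart markers were also higher in replicate 2, by a median of 2.64 on the log2 scale, and their part in the level of Tmod1 was not tested.

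Mpp1 encodes p55, a palmitoylated scaffold that binds protein 4.1 and glycophorin C, on chromosome X at 75109733 to 75131016, minus strand. It had 92.2 and 99.8 TPM in replicates 1 and 2 (96.0 ± 5.37, SD, n = 2). Mpp6 was its highest relative at 37.5 and 41.2 TPM, followed by Mpp2 at 9.14 and 11.9 TPM. Mpp1-201, with 466 codons, held 82.4% and 83.3%, and Mpp1-202, with 452, held 16.3% and 15.1%. All but 0.380% and 0.391% of Mpp1 came from 1 start group.

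By TPM summed over all transcript types, the genes kept the same order in both libraries: Epb41, Epb42, Add1, Dmtn, Mpp1, Add2, Tmod1, Sptb and Ank1. Neighbours in this order overlapped between libraries except for Epb42 and Add1, Mpp1 and Add2, and Add2 and Tmod1, which were apart. From complete coding transcripts only, Epb41 was the lowest of the 9, at 2.66 and 2.49 TPM, and Epb42 lay below Add1, Dmtn, Mpp1 and Add2. On the sum over all types, the highest gene exceeded the lowest by 3.92-fold and 4.53-fold. On the log2(TPM + 0.1) scale the smallest gap to the highest paralog was 1.08 ± 0.05 for Tmod1 over Tmod3 and the next 1.13 ± 0.10 for Epb42 over Tgm2. All 9 genes stood above each of their own listed paralogs in both libraries. Add1 and Add2 were not listed against each other, and Add2 lay below Add1. Of the 40 paralogs, 19 (47.5%) reached 1 TPM in both, beside 52.1% of annotated genes with a count. The levels of Epb42 and Epb41 in this comparison rest largely on transcripts annotated as non-coding or incomplete. The coding transcripts of Epb42 had 46.8 and 51.3 TPM, below Tgm2, and the complete coding transcripts of Epb41 lay below Epb41l5. Tgm2 and Epb41l5 were counted over all their transcript types, so each of these comparisons sets a part against a whole.

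**Figure D4:**
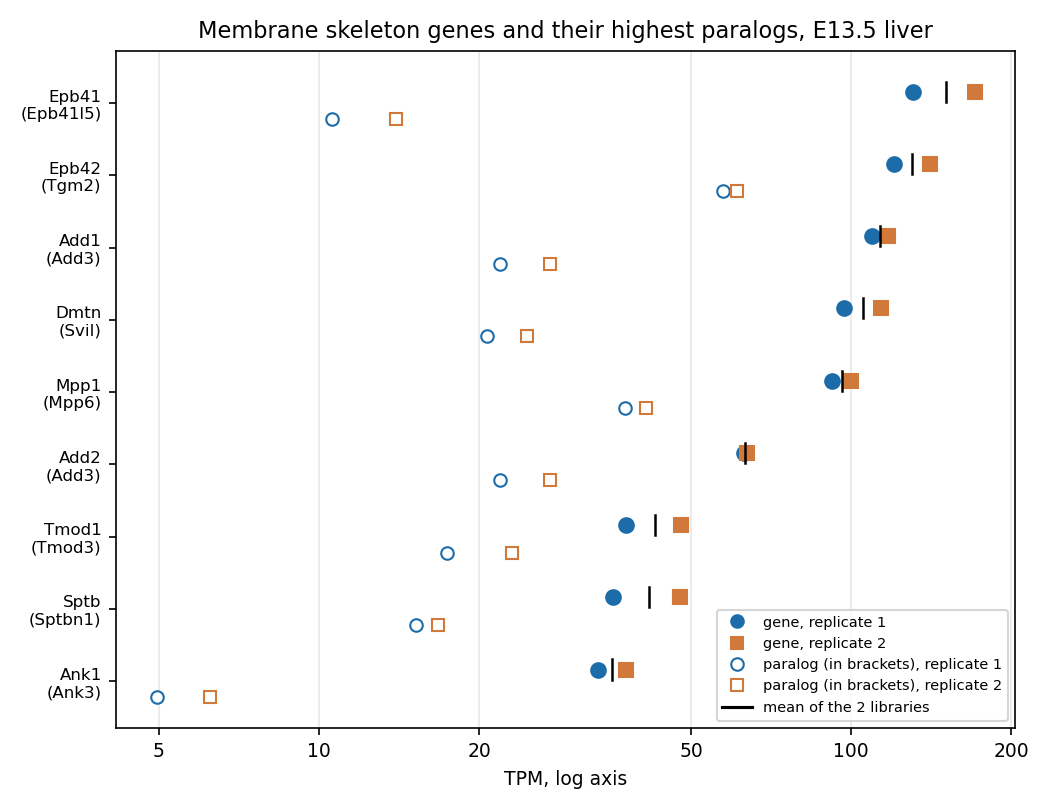
TPM on a log axis for the 9 genes (filled points) and, under each, its highest paralog (open points), with circles for replicate 1, squares for replicate 2 and a black line at each gene's mean. The filled points of every row lie to the right of the open ones, from Epb41 at 131 and 171 TPM down to Ank1 at 33.4 and 37.7 TPM.

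The known partners of these proteins were all present. Of these, 24 of 24 reached 1 TPM in both libraries, beside 52.1% of annotated genes with a count. The partners had a median of 153 and 177 TPM in replicates 1 and 2. Among membrane anchors Slc4a1 is given above, and Rhd, a Rh antigen, had 491 and 502 TPM. Gypc, the glycophorin that p55 and protein 4.1 hold, had 140.2 and 144 TPM. Among actin-linked partners Actb had 2936 and 3104 TPM, Actg1 640.2 and 669.8 TPM and Tpm3, a tropomyosin of the junctional filament, 220.4 and 253 TPM. Sptan1, the alpha spectrin of other tissues, had 7.04 and 8.11 TPM.

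RefSeq (GRCm38.p6) gives 9 promoters for 7 of the genes. The 250 bases before a RefSeq start are shown for Epb41, whose upstream start led and whose start near 132049078 was minor. They are also shown for Mpp1, which with Epb42 had AGATAA or TGATAA on either strand. Capitals mark those letters and CACCC on either strand. They run 5′ to 3′ on the gene's strand, which is minus for each.
Epb41, leading start, chr4:132075314-132075563: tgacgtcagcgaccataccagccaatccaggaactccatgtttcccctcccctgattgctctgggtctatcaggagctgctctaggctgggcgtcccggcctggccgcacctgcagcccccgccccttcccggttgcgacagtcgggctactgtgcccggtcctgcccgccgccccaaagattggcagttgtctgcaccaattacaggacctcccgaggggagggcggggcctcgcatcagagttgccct
Epb41, minor start, chr4:132049079-132049328: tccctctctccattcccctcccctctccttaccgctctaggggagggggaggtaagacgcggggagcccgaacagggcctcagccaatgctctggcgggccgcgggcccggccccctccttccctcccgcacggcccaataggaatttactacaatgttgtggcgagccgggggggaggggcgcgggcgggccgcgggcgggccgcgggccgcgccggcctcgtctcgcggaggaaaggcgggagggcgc
Mpp1, chrX:75131017-75131266: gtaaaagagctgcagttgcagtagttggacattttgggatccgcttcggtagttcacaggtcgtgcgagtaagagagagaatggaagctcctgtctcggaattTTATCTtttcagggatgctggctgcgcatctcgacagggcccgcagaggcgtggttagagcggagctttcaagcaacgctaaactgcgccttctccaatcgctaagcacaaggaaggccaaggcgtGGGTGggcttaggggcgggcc

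The letters AGATAA or TGATAA, which GATA factors can bind, occurred in 2 of 9 of these windows and in 16.6% of 32851 RefSeq windows of the same length. They began at -147 in Mpp1, counted from the start. The Epb42 window is anchored at the RefSeq start 121036877, near transcripts with 13.4% of Epb42 TPM, and spans the start of the coding Epb42-202 at 121037072, so it is not shown. CACCC, letters that Krueppel-like factors can bind, occurred in 4 of 9 and in 52.0% of all windows. The 2 Epb41 windows printed had neither motif. They held 15 and 28 CG pairs for the leading and the minor start, beside a median of 6. Near their RefSeq ends these 2 windows also span quantified starts, that of Epb41-215 at 132075321 and that of Epb41-213 at 132049091. A match is a description of the letters in the window.

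The 9 genes were also compared between the libraries. After scaling of the estimated reads by the trimmed mean of M values (TMM), 0 of 9 passed 1.5-fold in either direction, beside 8.16% of 15997 genes, a share so small that 0 of 9 does not set these genes apart. Their median absolute log2 ratio was 0.09, beside 0.15 for all genes, which include genes with a mean count as low as 10. Sptb had the highest ratio, 0.26 for replicate 2 over replicate 1 (exact 95% binomial interval 0.23 to 0.30), then Epb41 at 0.24 (0.21 to 0.27) and Tmod1 at 0.19 (0.13 to 0.25). Add2 had the lowest at -0.14 (-0.19 to -0.09), while the intervals of Add1 at -0.01 and Mpp1 at -0.04 spanned 0. Intervals cover counting error only, since reads without molecular identifiers are not independent molecules. Longer genes as a class were higher in replicate 2, with a median ratio of -0.11 under 1500 nt, 0.01 from 1500 nt, 0.09 from 3000 nt and 0.09 from 5000 nt. The part of length in the ratios of Sptb and Epb41 was not tested. On spike-in scaling the median of all genes shifted to -0.56 and that of the 9 genes to -0.49, with 2 of 9 past 1.5-fold. The share of all genes past 1.5-fold on that scaling is not given here, so 2 of 9 is not a result about these genes. On TPM the medians were 0.14 and 0.22.

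**Figure D5:**
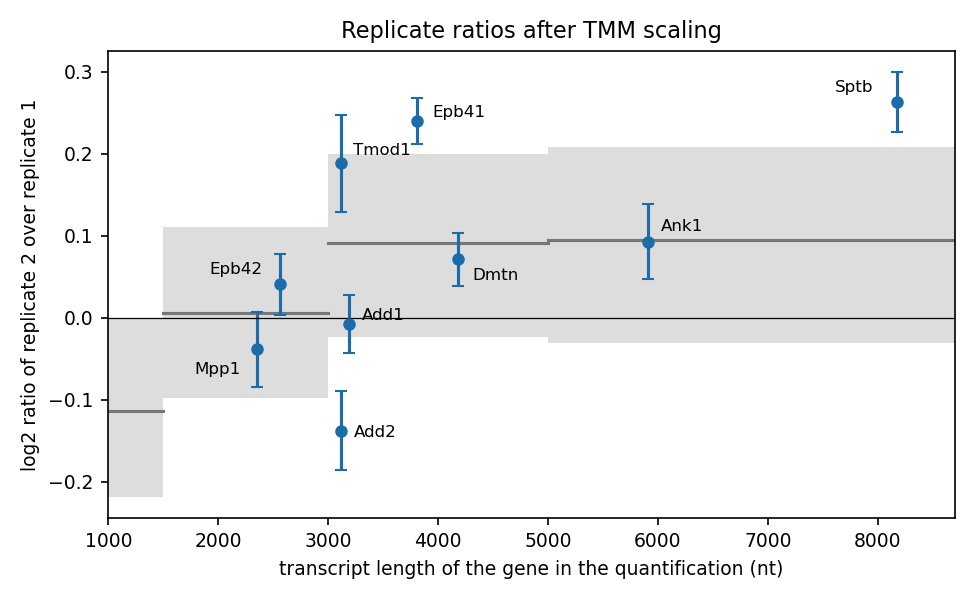
Log2 ratio of replicate 2 over replicate 1 after TMM scaling against the transcript length of each gene in nt, with exact 95% binomial intervals as bars. Grey lines and bands are the median and the middle of the distribution, from the lower to the upper quartile, of all genes whose mean count reached 100, in 4 length classes, and Sptb (0.26) and Epb41 (0.24) lie above their bands while Add2 (-0.14) lies below its own.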

How the data were processed

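Total RNA-seq of day 13.5 mouse liver was deposited as 1 gene table and 1 transcript table for each of 2 libraries, which the labels put in 1 group. The authors deposited expected counts (estimated reads, not normalized and not whole), TPM, FPKM and the percent of a gene's TPM in each transcript, with posterior SDs and credibility bounds whose level is not stated, per the file headers. FPKM was not used. Reads were assigned on mm10 with GENCODE M4, per the deposited notes. Aligner, quantifier, strand setting and read length: not given in the sources used here. Whether reads of overlapping opposite genes were told apart is not known. TPM also runs over 26248 transfer RNA entries and 96 spike-ins.

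Members and gene lists were chosen with earlier results of these data known. Symbols matched for 42462 of 43346 genes. Exons, starts and coding frames came from GENCODE M21 on GRCm38. Of the 77 transcripts, 75 had the same length there, and the other 2, both of Dmtn, kept that gene out of the exon analysis. Starts within 100 nt were grouped. Exon inclusion was the TPM of protein-coding transcripts holding an internal exon over that of all protein-coding transcripts spanning it. Shares were recomputed from TPM and differed from the deposited percent by at most 0.0195 points. Family gaps used log2(TPM + 0.1). Replicate ratios used expected counts + 0.5, not rounded for the ratio but rounded to whole numbers for scaling factors and intervals, with TMM factors from edgeR 4.0.16, for genes whose mean count reached 10. DESeq2 1.42.0 size factors were an alternative. The ratio step was tested on simulated data. The genes named were all 9 members with each transcript, start or exon between 5% and 95%, and from each list the 3 highest or, where 5 or fewer, those on 1 side of 1 TPM, not all of which are printed. Python 3.11.15 and R 4.3.3 were used. Alternatives were other scalings and filters, other pseudocounts, posterior mean TPM, shares of counts, all transcript types, wider start groups, each library left out and, added after seeing the data, complete coding transcripts only. Results for some partner genes are not reported here.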

Additional observations from a re-analysis of the deposited data

How the results depend on the processing

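Over 100 results and 448 alternative values, 351 stayed within the spread of the libraries or on the same side, 90 moved beyond it and 7 changed sign. The median level of the 9 genes was 96.0 TPM, 141 TPM without globins and 49.1 TPM from complete coding transcripts only, an alternative chosen after seeing the data. Their summed share was 0.0799% of TPM and 0.257% of expected counts. The median protein-coding share was 98.7%, 97.5% by posterior mean TPM and 99.5% by expected counts. The start of Ank1-206 held 49.6%, 47.8% by posterior mean TPM and 55.04% with starts grouped within 500 nt. Inclusion of the Epb41 63-nt exon was 95.5%, 93.9% by posterior mean TPM and 48.4% over all transcripts that span it. Spike-in scaling put 2 of the 9 genes past 1.5-fold, a count with no share of all genes on that scaling to set beside it. On it the log2 replicate ratios became -0.30 for Sptb, -0.47 for Ank1, -0.32 for Epb41, -0.52 for Epb42, -0.49 for Dmtn and -0.38 for Tmod1, against a median of all genes of -0.56. On TPM the ratio of Add2 was 0.018, against a median of all genes of 0.14. The cause of these changes was not tested beyond what each alternative builds in. Of the 351, 90 came from each library left out, where a mean of 2 moves by less than their SD by construction. With replicate 1 or replicate 2 left out, the start of Ank1-213 went to 10.9% or 0% (mean 5.47%), the 375-nt form of an Ank1 exon to 8.17% or 21.3% (mean 14.7%) and the start of Epb41-218 to 7.53% or 16.4% (mean 12.0%). The 375-nt form is held by Ank1-202 alone, and 100% of the coding TPM that spans this exon held some form of it. No paired analysis was possible because there is 1 group. Isoform shares are estimates that divide shared reads among overlapping transcripts, and with 2 libraries the SD is imprecise.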

Other observations

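Several genes overlap the 9 in position. Dkc1, which makes a pseudouridine synthase, meets the 3′ end of Mpp1 on the opposite strand and had 117 and 145 TPM in replicates 1 and 2. Tstd2, opposite the end of Tmod1, had 9.84 and 12.1 TPM, Plekhg3, opposite the end of Sptb, 1.12 and 1.32 TPM, and the antisense gene Gm15816 within the 3′ part of Ank1 0.26 and 0.29 TPM. Mir486, a microRNA inside Ank1, had no count in either library, of RNA selected over 200 nt. How reads in the overlaps were assigned is not known here.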
